A study of Mus musculus with 12 samples.

Results

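The 7 genes described here carry the signal of the circadian clock to its outputs. They are the PAR bZIP activators Dbp, Tef and Hlf, the D-box repressor Nfil3, the REV-ERB repressors Nr1d1 and Nr1d2, and the ROR activator Rora. They were taken from the deposited tables by gene symbol, and are 7 of 39929 gene names listed in any of the 3 tables. All 7 had a row of their own at 2 h and at 24 h, and 6 had one at 7 d, where Dbp was merged with its neighbour Car11.

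The tissue was prefrontal cortex (PFC) of male C57BL/6 mice (C57BL/6 J by the study's methods) aged 10 weeks. The cocaine groups received cocaine intraperitoneally at 20 mg/kg per day for 14 days, between 9:00 and 11:00 a.m., and the control groups received saline for as many days. The PFC was taken at 2 h, 24 h or 7 d from the last injection, which gave 6 groups of 2 libraries, and each library pooled the PFC of 5 mice, the dissected block taking in frontal association, prelimbic and orbital cortex. The labels name no genetic change in any group, and the injections and handling were shared by saline and cocaine mice. Each table gives, for each locus, 1 value per group in FPKM (fragments counted on a transcript, divided by its length and by the mapped fragments of the library) that the authors had pooled over both libraries. No spread between libraries can be computed from these values, so no difference below carries a test, and folds are read against the share of all loci that differed as much. The depth behind each value is unknown from the tables.

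The circadian clock is a feedback loop in which CLOCK and BMAL1 (the product of Arntl) bind E-boxes and switch on their own repressors, the PER and CRY proteins. The same E-boxes drive a second layer of factors. DBP, TEF and HLF bind D-boxes and activate genes from them, and NFIL3 (also named E4BP4) binds the same boxes and represses. REV-ERB alpha (Nr1d1) and REV-ERB beta (Nr1d2) compete with ROR factors for the same response elements, where REV-ERBs repress through the NCoR complex and RORs activate. Arntl and Nfil3 are well-known REV-ERB targets. Rhythms of these genes run in most tissues, the cortex included, so that their level depends on the time of day.

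The sequences before the start sites of these genes are shown as 1 place where clock factors can act. They come from the RefSeq table for GRCm38.p6, in which all 7 genes were found, with 2 windows for Tef and 1 for each of the others. Each window searched runs from 250 bases before to 50 after a start site, and the stretches printed lie before the start. Searched on both strands were the E-box CACGTG, the E-box variant CACGTT, the D-box as TTATGTAA or TTACGTAA, and the REV-ERB and ROR half-site AGGTCA. Capitals mark a match, lower case marks the rest, and each is written 5′ to 3′ on the gene's own strand, which is plus for Dbp and Tef and minus for Nr1d1, Nr1d2 and Nfil3. Stretches that an annotated exon covers are shortened.
Dbp, chr7:45704997-45705087: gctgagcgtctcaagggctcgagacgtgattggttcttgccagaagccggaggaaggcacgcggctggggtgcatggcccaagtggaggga
Nr1d1, chr11:98775378-98775627: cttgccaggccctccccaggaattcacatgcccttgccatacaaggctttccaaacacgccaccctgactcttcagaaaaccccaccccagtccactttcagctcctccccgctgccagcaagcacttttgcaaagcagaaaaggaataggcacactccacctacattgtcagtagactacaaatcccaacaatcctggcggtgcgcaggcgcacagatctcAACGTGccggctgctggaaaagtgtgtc
Nr1d2, chr14:18239128-18239356: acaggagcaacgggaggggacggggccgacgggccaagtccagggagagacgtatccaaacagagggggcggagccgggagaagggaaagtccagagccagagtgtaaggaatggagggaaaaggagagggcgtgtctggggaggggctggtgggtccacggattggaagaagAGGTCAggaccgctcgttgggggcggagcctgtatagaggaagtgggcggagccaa
Nfil3, chr13:52981040-52981063: ggcgctcggaacTGACCTactaac
Tef, upstream start, chr15:81802534-81802563: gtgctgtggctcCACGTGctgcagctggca
Tef, downstream start, chr15:81811264-81811293: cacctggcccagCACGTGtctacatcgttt

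The E-box stood in both Tef windows, with its first base at position -127 and position -138 from the respective start. Of all 32851 mouse windows, 7.15% held it. The variant stood in the Nr1d1 window on the strand opposite to the gene, read as AACGTG at position -28, and in 4.68% of all windows. The half-site stood in the Nr1d2 window at position -77 and, on the opposite strand as TGACCT, in the Nfil3 window at position -12, and in 16.3% of all windows. No D-box match was found in the windows of any of the 7 genes, against 1.06% of all windows. None of the motifs was found in the windows of Dbp, Hlf or Rora. Introns and sequence further away were not searched, so a gene with no match may have sites there. The start used for Nfil3 lies inside the RefSeq span of that gene, chr13:52967209-52982878. The same holds for Dbp (span chr7:45705100-45710203), Rora (span chr9:68653404-69388246) and the downstream start of Tef. For these the window does not lie before the annotated 5′ end of the gene. A match is a description of letters in the window and does not show a bound site.

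The 7 genes covered a wide range of levels on the FPKM scale, which is per length of transcript. In saline mice at 2 h, Tef stood at 75.0 FPKM, with 6.99% of loci above it. Nr1d1 followed at 54.6, then Hlf at 41.2, Dbp at 39.3 and Nr1d2 at 18.2. Rora at 4.50 and Nfil3 at 2.95 were the lowest, and 77.8% of loci stood above Nfil3. All loci here means those with a gene name and a mean of at least 1 FPKM. Tef was the highest member in all 6 groups. The lower end changed places: Nfil3 was below Rora in both groups at 2 h and in cocaine mice at 24 h, and above it in the other 3 groups. Hlf and Nr1d1 also changed places in cocaine mice at 7 d, at 37.6 and 37.5 FPKM. Whether neighbours in this order differ beyond the spread between libraries cannot be read from 1 value per group.

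**Figure D1:**
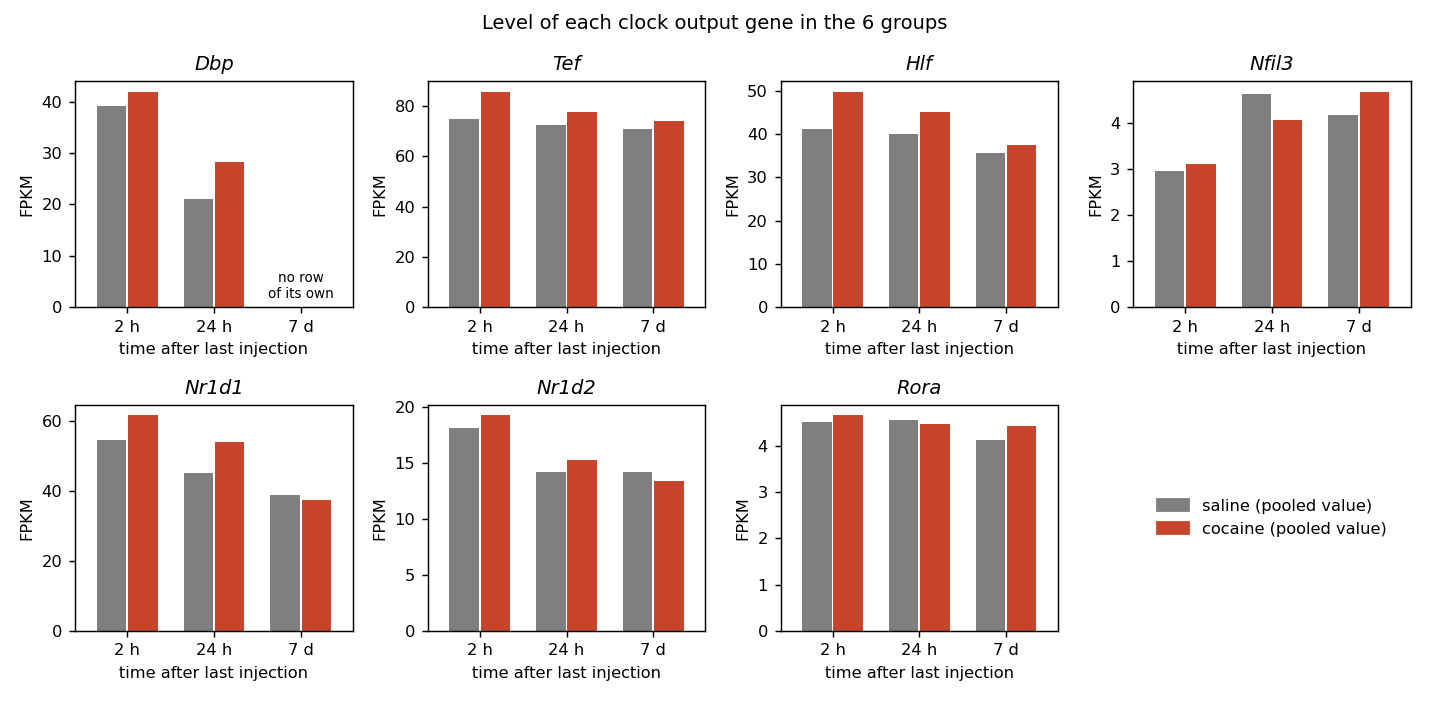
Pooled FPKM (vertical axes, each from 0 and on its own scale) of the 7 genes in saline (gray) and cocaine (red) mice at 2 h, 24 h and 7 d after the last injection. Each bar is 1 pooled value with no error, and the saline bar of Dbp is at 39.3 FPKM at 2 h and 21.1 at 24 h while Rora stays between 4.12 and 4.65 in all 6 bars.

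Dbp (chr7:45705100-45710203, GRCm38) was listed at 2 h and 24 h at a locus, chr7:45705088-45720835, that it shared with Sphk2 and Rpl18. Of the D-box activators, Dbp differed most between treatments at 24 h. It stood at 21.1 FPKM in saline mice and 28.3 in cocaine mice at 24 h, a difference of 0.42 on the log2 scale or 1.34-fold, and 2.69% of 13929 loci differed upward by at least as much. All log2 differences here were taken after adding 0.1 FPKM. At 2 h the values were 39.3 in saline and 42.0 in cocaine mice, a difference of 0.10. The 24 h value was thus higher in cocaine mice, yet still below both values at 2 h.

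At 7 d the tables join Car11 and Dbp into 1 locus, at 93.8 FPKM in saline and 88.0 in cocaine mice, a difference of -0.09. Car11, which encodes a carbonic anhydrase-related protein, ends 412 bases before Dbp on the same strand. At the earlier times Car11 alone stood between 78.2 and 81.2 FPKM, and made up most of the sum of both rows. That sum was 120.4 FPKM in saline and 122.3 in cocaine mice at 2 h, and 99.3 and 106.7 at 24 h. How Dbp itself compared between treatments at 7 d therefore cannot be read from the table. The 3′ end of Dbp also overlaps Sphk2 on the other strand by 741 bases, and the library kit is not described as keeping strand. Sphk2, a sphingosine kinase gene, stood at 10.99 FPKM in saline and 11.6 in cocaine mice at 24 h. Rpl18, listed at the same locus, stood at 166 and 170 FPKM.

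Tef (chr15:81800791-81826865) was the most abundant of the 7 and differed little. Its FPKM in saline and cocaine mice at 2 h were 75.0 and 85.6, at 24 h 72.3 and 77.7, and at 7 d 71.0 and 74.0. The log2 differences of 0.19, 0.10 and 0.06 were all above 0, and at 2 h 17.0% of loci differed upward at least as much. The cocaine value was the higher at each time, by 14.2% at 2 h and by 4.19% at 7 d.

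Hlf (chr11:90336438-90390895) showed the same order. It stood at 41.2 FPKM in saline and 49.8 in cocaine mice at 2 h, a log2 difference of 0.27 or 1.21-fold, with 9.85% of loci at or above it. It was under 1.2-fold, at 0.25, once the median of all loci at 2 h (0.02) was taken off. The values were 40.0 and 45.1 at 24 h, a difference of 0.17, and 35.7 and 37.6 at 7 d, a difference of 0.07. All 3 PAR bZIP genes were thus higher in cocaine mice at each time they had a row of their own, by 1.04- to 1.34-fold. The exception was Hlf at 7 d, at -0.02 after removal of the median of loci of like transcript length. Many of these differences were of ordinary size. In either direction, 74.7% of loci differed at least as much as Tef at 7 d, 69% as Hlf at 7 d and 54.4% as Dbp at 2 h, against 5.24% for Dbp at 24 h. The shared sign is therefore not read as a property of the family.

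Nfil3 (chr13:52967209-52982815), the repressor at the same D-boxes, was the low-level member. It stood at 2.95 FPKM in saline and 3.10 in cocaine mice at 2 h, a log2 difference of 0.07. At 24 h it was lower in cocaine mice, at 4.07 against 4.63 FPKM, a difference of -0.18, and 10.4% of loci were at or below that. At 7 d it was higher, at 4.68 against 4.18, a difference of 0.16. The locus listed for Nfil3 at 7 d, chr13:52967209-52981073, is shorter than that of 2 h and 24 h. Its levels at 7 d may therefore not be of the same transcripts as at the other times. The sign thus changed from time to time, and no difference reached 1.2-fold.

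At 24 h the activator Dbp was higher and the repressor Nfil3 lower in cocaine mice. The ratio of Dbp to Nfil3 was 4.56 in saline and 6.97 in cocaine mice at 24 h, and 13.3 and 13.5 at 2 h. The ratio of Hlf to Nfil3 was 8.63 and 11.1 at 24 h, and 8.53 and 8.04 at 7 d. On this ratio the groups of 24 h stood further apart than those of 7 d.

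Nr1d1 (chr11:98767932-98775377) was listed at 2 h and 24 h at a locus, chr11:98740638-98775392, that it shared with Thra. Nr1d1 was higher in cocaine mice at 2 h and 24 h and slightly lower at 7 d. Its FPKM were 54.6 in saline and 61.6 in cocaine mice at 2 h, a log2 difference of 0.18. They were 45.2 and 54.0 at 24 h, a difference of 0.25, which is just under 1.2-fold and which 6.66% of loci matched or passed. They were 38.9 and 37.5 at 7 d, a difference of -0.05, which was 0.00 after scaling to the upper quartile. The last 1075 bases of Nr1d1 overlap Thra, the thyroid hormone receptor alpha gene, on the other strand. As for Dbp, the library kit is not described as keeping strand, and any part of Thra in the Nr1d1 values was not tested. Thra was the more abundant of the pair, at 398 and 432 FPKM at 2 h and 431 and 427 at 24 h in saline and cocaine mice. The log2 difference of Thra at 2 h was 0.12, of the same sign as that of Nr1d1. At 24 h it was -0.01 and at 7 d 0.06, both opposite in sign to Nr1d1.

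Nr1d2 (chr14:18204054-18239127) followed Nr1d1 in sign at each time, with smaller differences at 2 h and 24 h. It stood at 18.2 FPKM in saline and 19.2 in cocaine mice at 2 h, at 14.2 and 15.3 at 24 h, and at 14.2 and 13.4 at 7 d. The log2 differences were 0.08, 0.10 and -0.09, and 34.8% and 23.1% of loci were at or above those of 2 h and 24 h.

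Rora (chr9:68653786-69388246), the activator at the elements that REV-ERBs repress, varied least. Its FPKM in saline and cocaine mice at 2 h were 4.50 and 4.65, at 24 h 4.56 and 4.47, and at 7 d 4.12 and 4.43, with log2 differences of 0.05, -0.03 and 0.10. After removal of the median of loci of like transcript length, the differences at 2 h and 7 d were both -0.04, so that no direction is given for Rora. The highest of its 6 pooled values was 1.1-fold the lowest, after each group was centred on its median locus, against 1.58-fold for Nr1d1 and Nfil3. The ratio of Nr1d1 to Rora was 9.93 in saline and 12.1 in cocaine mice at 24 h. It was 12.1 and 13.3 at 2 h and 9.44 and 8.46 at 7 d.

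**Figure D2:**
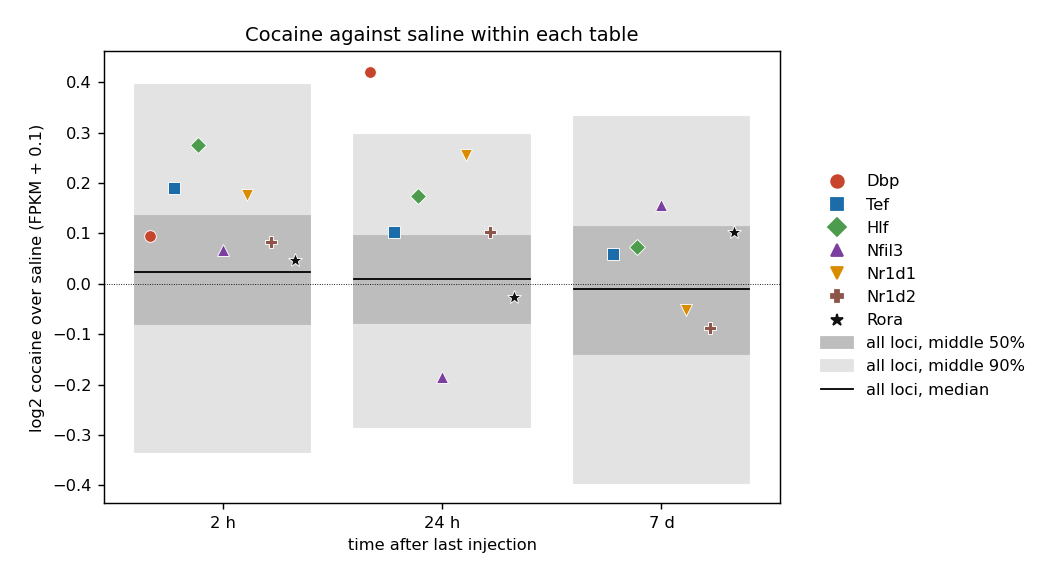
Log2 of cocaine over saline (FPKM + 0.1, vertical axis) of each gene at 2 h, 24 h and 7 d, over bands that hold the middle 50% and the middle 90% of all loci with their median as a line. Dbp at 24 h, at 0.42, is outside the wider band, whose upper edge is at 0.30, and every other point is inside the wider band of its time.

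Few of the 7 reached 1.2-fold. At 2 h 1 of 7 was higher by at least 1.2-fold (Hlf) and 0 lower, where 10.6% and 7.26% of all 13466 loci were. At 24 h 1 of 7 was higher (Dbp) and 0 lower, against 6.27% and 5.72% of 13929 loci. At 7 d 0 of 6 were higher or lower, against 8.3% and 11.9% of 13562 loci. A count of 1 among 7 is near these shares and is not read as a property of the group. The median log2 difference of the members was 0.10 at 2 h and at 24 h and 0.07 at 7 d, and that of all loci 0.02, 0.01 and -0.01 in the same order.

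The saline groups were then set against each other, since the mice of the 3 tables differ in the time since the last injection. By the stated schedule, mice of the 2 h table were killed later in the day than the injection hours and those of the 24 h and 7 d tables at about these hours, if killed on schedule. The hour of killing itself is not stated in the sources used here. Time of day, time since handling and table cannot be told apart in these levels. The tables were also normalized separately, so each difference was centred on the median of the loci matched by name, which was -0.02 for 2 h over 24 h, -0.03 for 7 d over 24 h and -0.00 for 7 d over 2 h.

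Dbp was the member that differed most between the saline groups. It stood at 39.3 FPKM in saline mice at 2 h and 21.1 at 24 h, 1.88-fold higher or 0.91 on the centred log2 scale, and ranked 138 from the top of 13485 loci, with 1.02% at or above it. The REV-ERB genes differed the same way. Nr1d2 was at 18.2 against 14.2 FPKM, a centred difference of 0.37 with 3.63% of loci at or above, and Nr1d1 at 54.6 against 45.2, a difference of 0.29 with 5.88%. Nfil3 differed the other way, at 2.95 FPKM at 2 h and 4.63 at 24 h. Its centred difference was -0.61, or 1.53-fold lower, with 2.55% of loci at or below.

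Tef, Hlf and Rora were near the median locus in this comparison, with centred differences of 0.07, 0.06 and 0.00. In all, 3 of 7 genes were higher by at least 1.2-fold in saline mice at 2 h than at 24 h (Dbp, Nr1d1 and Nr1d2) and 1 lower (Nfil3). Of all loci 7.12% were higher and 9.22% lower by as much. The difference of Dbp between the saline groups of 2 h and 24 h, at 0.91, was larger than that between treatments at 24 h, at 0.42.

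Between 7 d and 24 h the saline levels of all 6 genes with a value stayed within 1.2-fold. The centred differences were -0.19 for Nr1d1, -0.14 for Hlf, -0.12 for Nfil3 and Rora, -0.00 for Tef and 0.02 for Nr1d2. No gene was past 1.2-fold in either direction, where 13.3% of all 13358 loci were higher and 12.7% lower. Saline mice at 7 d thus stood nearer to those at 24 h than to those at 2 h for the REV-ERB genes and Nfil3. For Nfil3 the shorter locus listed at 7 d enters both comparisons.

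Between 7 d and 2 h, Nfil3 was the gene with the higher level at 7 d, at 4.18 against 2.95 FPKM, a centred difference of 0.49. Its locus as listed was shorter at 7 d, and the part of this in the difference was not tested. Nr1d1 was lower at 7 d, at 38.9 against 54.6, a difference of -0.48, and Nr1d2 was lower at 14.2 against 18.2, a difference of -0.35. Hlf, Rora and Tef differed by -0.20, -0.12 and -0.07. Thus 1 of 6 was higher and 2 were lower by at least 1.2-fold, where 13.4% of 13239 loci were higher and 10.6% lower. This comparison and the other saline comparisons share groups and are not independent of each other.

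For 2 h over 24 h the differences had the same signs in the cocaine groups as in the saline groups. Cocaine mice at 2 h against 24 h had centred differences of 0.57 for Dbp (42.0 and 28.3 FPKM), 0.33 for Nr1d2, 0.19 for Nr1d1 and -0.38 for Nfil3 (3.10 and 4.07 FPKM). For Dbp and Nfil3 these were nearer to 0 than in saline mice, at 0.57 against 0.91 and -0.38 against -0.61, and whether the gaps differ between treatments could not be tested. At 7 d against 24 h the treatments were less alike. Nr1d1 in cocaine mice differed by -0.47 (37.5 and 54.0 FPKM) and Nfil3 by 0.25 (4.68 and 4.07). In saline mice the same differences were -0.19 and -0.12, so that Nfil3 differed in sign. Nr1d2 was at -0.14 in cocaine and 0.02 in saline mice.

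**Figure D3:**
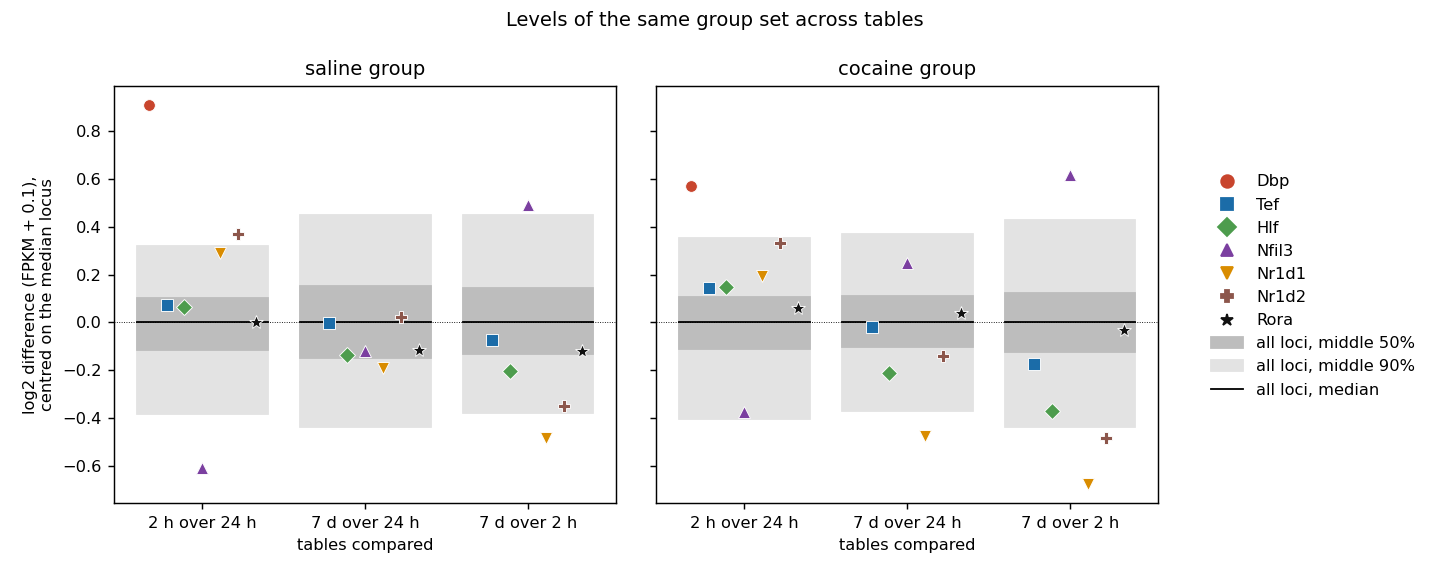
Centred log2 differences of the same treatment group between tables (vertical axis), for saline mice (left) and cocaine mice (right), over bands of the middle 50% and 90% of all loci. In saline mice Dbp is at 0.91 and Nfil3 at -0.61 for 2 h over 24 h, on opposite sides of the wider band, and all 6 genes with a value for 7 d over 24 h lie inside it.

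Among other clock genes larger differences between treatments stood beside these, which was not tested. The list of 11 was chosen with earlier results of these data known. In it 6 were higher by at least 1.2-fold in cocaine mice at 2 h, 7 at 24 h and 1 at 7 d. At any time 0 were lower. Of all loci 10.6%, 6.27% and 8.3% were higher by as much, and 7.26%, 5.72% and 11.9% lower. The study had already reported circadian pathways as enriched at 2 h and 24 h, and had called Per2 and Bhlhe40 at 24 h, so these counts are context. The medians of the list were 0.28, 0.38 and 0.12 on the log2 scale, beside 0.02, 0.01 and -0.01 for all loci. Per2, a repressor of the core loop, was at 1.28 FPKM in saline and 3.09 in cocaine mice at 24 h, and Per1 at 9.46 and 16.2. Ciart, which encodes a repressor of CLOCK and BMAL1, was at 4.90 and 7.56 FPKM. The activator genes of the core loop were not higher at 24 h, with log2 differences of -0.13 for Arntl, 0.00 for Clock and -0.19 for Npas2.

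Between the saline groups of 2 h and 24 h, Per2 and Ciart were, like Dbp, higher at 2 h. Per2 was at 2.59 FPKM at 2 h and 1.28 at 24 h, a centred difference of 0.99, and Ciart at 8.22 and 4.90, a difference of 0.76. Arntl, a target that REV-ERBs repress, was at 9.87 and 11.4 FPKM, a difference of -0.18. Per1, in contrast, was at 9.17 and 9.46, a difference of -0.02, although of the list it had the largest difference between treatments at 2 h, at 1.23.

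**Figure D4:**
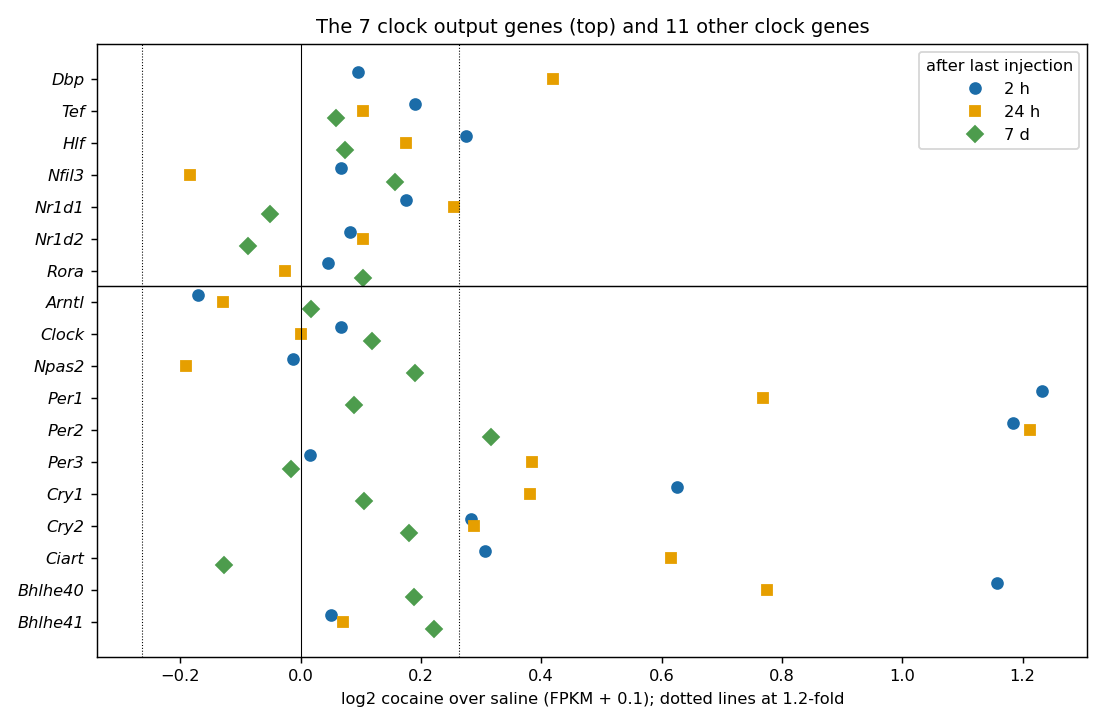
Log2 of cocaine over saline (FPKM + 0.1, horizontal axis) of the 7 output genes (above the line) and 11 other clock genes (below it) at 2 h (circles), 24 h (squares) and 7 d (diamonds), with dotted lines at 1.2-fold. The output genes lie between -0.18 and 0.42, while Per1, Per2 and Bhlhe40 pass 0.75 at 2 h and 24 h.

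Rorb, the ROR paralog, stood at 5.24 FPKM in saline and 5.16 in cocaine mice at 2 h and at 4.90 and 5.42 at 24 h, a level near that of Rora. At 7 d it stood at 4.86 and 5.29 FPKM, and no difference reached 1.2-fold.

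Of 4 output and target genes, 1 was lower by at least 1.2-fold at 2 h and 0 higher, against 7.26% and 10.6% of all loci. At 24 h and 7 d 0 were past the limit. Of all loci 6.27% were higher and 5.72% lower at 24 h, and 8.3% and 11.9% at 7 d. A count of 1 among 4 is not read as a property of the list. Usp2, a ubiquitin protease gene with a strong daily rhythm, was at 25.7 FPKM in saline and 16.3 in cocaine mice at 2 h, a log2 difference of -0.65, at 20.8 and 23.3 at 24 h, and at 21.0 and 17.8 at 7 d. This is opposite in sign to the D-box activators at 2 h. Pdxk, a pyridoxal kinase gene that PAR bZIP factors activate in brain, was at 22.8 FPKM in saline and 26.0 in cocaine mice at 2 h, with 24.5 and 24.4 in the 24 h table and 20.5 and 24.0 in that of 7 d. The medians of this list were 0.13, -0.03 and -0.02.

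Over the 6 pooled values, each group centred on its median locus, the members fell into like and unlike pairs. Pearson's r was -0.98 for Nfil3 with Nr1d2 and -0.87 for Nfil3 with Nr1d1, and 0.88 for Nr1d1 with Nr1d2, 0.91 for Hlf with Nr1d1 and 0.88 for Hlf with Tef. Rora had no r beyond 0.58 in size with any member. These values rest on 6 points that share tables and normalization, and describe these points alone.

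The loci most like each member over the same 6 values were named by rule, the 3 with the highest r among about 4560 loci with a mean of at least 5 FPKM and a range of at least 1.2-fold. For Nr1d1 the first was the clock gene Ciart at 0.99, then Sorbs2 and Hrh3. For Nfil3 these were Gm26694 at 0.98, Cd320 and the immediate-early gene Jun, both at 0.97. For Nr1d2 they were Slc4a8, Tmem108 and Plcl2, and for Rora Podxl, Maf and Tgfbr1. For Tef they were Kbtbd2, the glucocorticoid-induced gene Tsc22d3 and Slc25a44, and for Hlf Cecr6, BC018242 and Vps37b. With so few points many loci reach a high r: 326 were over 0.9 for Hlf, 172 for Tef, 159 for Nr1d1, 86 for Rora, 83 for Nr1d2 and 56 for Nfil3. The members themselves were not held to these limits. Nfil3 and Rora stood below 5 FPKM in all 6 groups, and Tef and Rora ranged over only 1.18- and 1.1-fold. The 7 d values of Nfil3 are those of the shorter locus. Dbp, without a 7 d value, was not ranked.

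Markers of the tissue and of other cells were read from the same values. In bulk tissue fewer cells of a type and less RNA per cell cannot be told apart. The summed level of 5 cortical excitatory neuron markers was between 1384 and 1644 FPKM in the 6 groups. Camk2a and Slc17a7 made up most of that sum, which says little of the other markers. At 7 d Neurod6 stood at 37.2 FPKM in saline and 28.1 in cocaine mice, and Camk2a at 844 and 999. Of the 5, 1 was lower by at least 1.2-fold at 7 d and 0 higher, against 11.9% and 8.3% of all loci. The 3 olfactory bulb markers listed, out of 4, summed to between 0.552 and 0.849 FPKM. Beside the values of Hlf and Tef at 2 h, red blood cell markers summed to 323 FPKM in saline and 504 in cocaine mice, with 5 of 5 higher by at least 1.2-fold. Beside the value of Dbp at 24 h, oligodendrocyte markers summed to 727 and 598 FPKM, with 1 of 4 lower by 1.2-fold, and astrocyte markers to 292 and 263, with 2 of 4 lower. At 7 d choroid plexus markers summed to 3.43 FPKM in saline and 9.56 in cocaine mice, a gap that lay in Ttr, at 0.284 and 6.54 FPKM. Folr1, at 0.668 and 0.290, and Clic6, at 0.0685 and 0.0339, were lower in cocaine mice, and Kcnj13 stood at 2.04 and 2.16. No marker that was listed stood at 0, and the part of these differences in the results above was not tested. Between the saline groups of 2 h and 24 h, red blood cell markers summed to 323 and 458 FPKM. Immediate-early genes also differed between the same groups, Arc by more than any member. Arc was at 5.59 FPKM at 2 h and 23.2 at 24 h, a centred difference of -2.01. Fos, Nr4a1 and Junb differed by -0.91, -0.91 and -0.80. Egr2, with a mean under 1 FPKM, differed by -0.51, and Egr1 by 0.27. Whether these move with the saline differences of Dbp and Nfil3 was not tested. Immediate-early genes, by which the acute response to the drug is known, were higher in cocaine mice by at least 1.2-fold for 6 of 6 at 2 h and at 24 h. At 7 d this held for 5 of the 5 with a mean of at least 1 FPKM. Of all loci 10.6%, 6.27% and 8.3% were higher by as much at 2 h, 24 h and 7 d. The study had already called Fos, Egr1 and Nr4a1 from these data at each time, so these counts are context and no separate result.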

How the data were processed

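Poly(A) RNA of 12 PFC libraries was sequenced in pairs on a HiSeq2000. The submitters' processing notes name CASAVA 1.8.2, Trimmomatic 0.32, TopHat2 2.0.12, Cufflinks 2.2.1 and Cuffdiff on GRCm38/mm10; the study's methods name other trimming and mm9. Loci overlapped the RefSeq GRCm38.p6 gene of their name for 99.7% to 99.8% of names matched, and starts were raised by 1 to be 1-based. The deposited values, 1 per group, were taken as Cuffdiff FPKM. Pooling by the authors over 2 libraries and scaling within each time point are inferred from the design, as the column names do not state them. Fold change, test statistic, p and q columns of the authors' own comparison are not used here. The first value was taken as saline from the headings of the study's supplementary tables, because the column codes alone are ambiguous, and every sign rests on this.

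The log2 of (cocaine + 0.1)/(saline + 0.1) FPKM was taken for each locus, and loci with a gene name and a mean of at least 1 FPKM formed the background. Levels between tables were centred on the median of loci matched by name. No test was possible, since there is 1 value per group. Genes were named by list: all 7 members, the other clock genes, Rorb, output and target genes, immediate-early genes and cell markers, with the largest differences of a list named, and the 3 loci most like each member. Some items are not reported here. Members and lists were chosen with earlier results of these data known. Alternatives were another pseudocount, scaling, minimum, fold limit, a trend over transcript length taken out, and all loci naming a member. Exons used to shorten sequences were those of GENCODE vM1, found by matching the sequence. Taking log2 differences, centring them and applying the 1.2-fold limit were tested on saline values of 24 h multiplied by known folds, with no spread added. The other steps were not tested in this way. Python 3.11.15, pandas 2.3.3, numpy 2.4.6, scipy 1.17.1 and matplotlib 3.10.9 were used.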

Additional observations from a re-analysis of the deposited data

How the results depend on the processing

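Alternatives were run for the members' treatment differences and saline differences, not for the other genes or the cocaine levels between tables. Each of the members' differences run that reached 1.2-fold kept its direction. The 1 member higher at 2 h (Hlf) became 0 when the difference was centred on the median of all loci (0.25), scaled to the upper quartile (0.24), freed of the trend over transcript length (0.22), or held to a 1.5-fold limit. The 1 member higher at 24 h (Dbp) became 0 at the 1.5-fold limit. With the length trend taken out, Rora at 7 d went from 0.10 to -0.04. With a pseudocount of 1 FPKM the saline difference of Nfil3 between 2 h and 24 h was -0.49. Of 120 alternative values of the treatment differences 116 stayed within 0.1 on the log2 scale and on the same side of 1.2-fold, as did 56 of 57 saline differences. The 120 include values summed over all loci naming a member. Each member had 1 such locus at each time, so these values could not move and say nothing of robustness. Of 48 alternative values of the shares of all loci past the limit, 28 stayed within 1.5 times. The treatment difference rose with transcript length over all loci at 7 d (Spearman's rho 0.474), less at 2 h (0.156) and 24 h (0.0848).

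No paired analysis was possible because the tables hold 1 pooled value per group, and leaving out each replicate was not run for the same reason. Without values per library or read counts, neither spread nor depth sets a limit on these differences.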
